A study of Mus musculus with 2 samples.

Results

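The miR-34 and miR-449 family of miRNAs was followed through its 6 hairpin genes in small RNA of the mouse embryonic forebrain. Mir34a, Mir34b, Mir34c, Mir449a, Mir449b and Mir449c were chosen by gene name from the 1973 genes counted in these libraries, and all 6 were found. They lie at 3 genomic loci. The tissue was forebrain of B6NCrl embryos at 10.5 days of development, pooled over both sexes and described as healthy, with no treatment or mutation given in the labels. There was 1 group of 2 libraries, replicate 1 from 69 pooled embryos and replicate 2 from 51 pooled embryos, numbered as biological replicates. A pool averages over its embryos, so the spread between embryos was not measured, and with 1 stage and 1 tissue no condition was compared. Multiciliated cells, for which the family is known, could not be checked against marker mRNAs here, because the 1894 counted genes that could be named are all annotated as miRNA genes.

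A miRNA is cut from a hairpin transcript and guides silencing complexes to mRNAs that pair with its seed, the bases 2 to 8 from its 5′ end. Members of the family share a seed and can therefore share targets. In vertebrates they are known to act together in cells that build many motile cilia, such as those of airway, oviduct, ependyma and choroid plexus, by lowering inhibitors of centriole and cilium assembly. Mir34a and the Mir34b-Mir34c pair are also known as direct targets of the tumour suppressor p53, and the Mir449 hairpins sit in Cdc20b, a gene of multiciliated cells. The male germ line is another known site of Mir34b, Mir34c and Mir449 expression.

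Mature sequences are shown to make the shared seed visible. Of the 6 members, 5 were matched by symbol in the RefSeq miRNA table (GRCm38.p6, the same coordinates as mm10), with 9 mature sequences. Mir449b and miR-34c-5p were not matched. The 4 sequences of the 5p arm are given 5′ to 3′ with the seed in capitals.
miR-34a-5p: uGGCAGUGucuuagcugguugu
miR-34b-5p: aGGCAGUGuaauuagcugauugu
miR-449a-5p: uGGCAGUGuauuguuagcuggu
miR-449c-5p: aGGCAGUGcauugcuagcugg
All 4 of these hold the seed GGCAGUG, and no mature sequence of a gene outside the family did among the 1738 in the table. Searched on the strand of the RNA, the letters GGCAGUG occurred in the hairpins of all 5 matched members and in 17 of all 1005 hairpins (1.69%). The 3p arms differ more, and are shown to mark which loci resemble each other.
miR-34a-3p: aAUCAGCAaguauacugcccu
miR-34b-3p: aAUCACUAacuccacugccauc
miR-34c-3p: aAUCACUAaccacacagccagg
miR-449a-3p: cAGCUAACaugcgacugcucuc
miR-449c-3p: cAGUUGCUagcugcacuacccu
Mir34b and Mir34c share the 3p seed AUCACUA. The other 3p seeds were each found in 1 member.

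The 5p arms were compared base by base from the 5′ end over the shorter sequence, seed included and without gaps. In this count miR-449a-5p and miR-449c-5p were identical at 18 of 21 bases. For miR-34a-5p and miR-449a-5p it was 15 of 22, and for miR-34b-5p and miR-449a-5p 10 of 22. A stretch shared at a shifted position counts as different, so these values do not rank the arms by likeness. All the 5p arms shown hold the run uagcug past the seed, but not all at the same position. The longest unbroken run that any of these 9 mature sequences shared with any other hairpin in the table was 11 bases, for miR-34a-5p in Mir449a and for miR-34b-5p in Mir34c. The deposited counts left out reads that mapped to several places. Set against the gene counts, such reads were 79.2% as many in replicate 1 and 77.8% as many in replicate 2. How many of these came from the family was not measured. The counts are per hairpin and do not separate the 5p from the 3p arm.

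Counts on the strand of the gene summed to 3256070 in replicate 1 and 3574530 in replicate 2, and levels are given as CPM, the counts per 1000000 of such reads. Intervals are exact Clopper-Pearson intervals at 95% and reflect the error of counting reads alone. PCR copies of a molecule are counted as separate reads, so the intervals can be too narrow for the counting of molecules. The family as a whole gave 7556 counts in replicate 1, a share of 0.232% (0.227 to 0.237), and 6803 counts in replicate 2, a share of 0.190% (0.186 to 0.195). Its mean share was 0.211% ± 0.030 (SD, n = 2). Reads on the strand opposite to a member numbered 0 in replicate 1 and 1 in replicate 2, that 1 at Mir34b.

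The Mir34b-Mir34c pair was the most strongly counted locus of the family, and nearly all of its reads came from Mir34c. Both hairpins lie on the minus strand of chromosome 9, 451 bases apart, inside an intron of Btg4, which runs on the opposite strand. Mir34c (ENSMUSG00000065587.1, positions 51103034 to 51103110 in mm10) had 3666 counts or 1126 CPM in replicate 1 and 4579 counts or 1281 CPM in replicate 2, a mean of 1203 ± 110 CPM (SD, n = 2). It ranked 102 by mean CPM among the 1973 genes, of which 739 had a count in either library.

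Mir34b (ENSMUSG00000065492.1, positions 51103562 to 51103645) lies upstream of Mir34c on the same strand. It had 143 counts or 43.9 CPM in replicate 1 and 172 counts or 48.1 CPM in replicate 2, a mean of 46.0 ± 3.0 CPM (SD, n = 2). Per base of hairpin, Mir34c exceeded Mir34b in read level by 28.0 times in replicate 1 (23.7 to 33.3) and 29.0 times in replicate 2 (24.9 to 34.0). These intervals overlap almost fully, so the division of reads within the pair was alike in both pools at this depth. Without division by hairpin length the ratio was 25.6 in replicate 1 and 26.6 in replicate 2. Mir34c gave 96.3% ± 0.095 of the counts of the pair (SD, n = 2).

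Mir34a, the member best known as a p53 target and the one expressed most widely in adult tissues, was counted at a level well below that of Mir34c. It lies on the plus strand of chromosome 4 at positions 150068454 to 150068555 (ENSMUSG00000065493.1). Its last 17 bases overlap an exon of Gm37795, a gene of the annotation's TEC class on the same strand that was not among the counted genes. Mir34a had 327 counts or 100.4 CPM in replicate 1 and 388 counts or 108.5 CPM in replicate 2, a mean of 104.5 ± 5.7 CPM (SD, n = 2), and ranked 215. Per base of hairpin, the read level of Mir34c was 14.9 times that of Mir34a in replicate 1 (13.3 to 16.7) and 15.6 times in replicate 2 (14.1 to 17.4). Without division by hairpin length these ratios were 11.2 in replicate 1 and 11.8 in replicate 2.

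The Mir449 cluster was counted almost entirely through Mir449a. The 3 hairpins lie on the plus strand of chromosome 13 in introns of Cdc20b and on its strand, in the order Mir449c, Mir449b, Mir449a. Mir449c starts 872 bases past the annotated start of Cdc20b, 1327 bases lie between Mir449c and Mir449b, and 35 between Mir449b and Mir449a. Mir449a (ENSMUSG00000065575.1, positions 113037534 to 113037624) had 3387 counts or 1040 CPM in replicate 1 and 1637 counts or 458 CPM in replicate 2. Its mean was 749 ± 412 CPM (SD, n = 2), the widest spread of any member, and its rank was 116.

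Mir449c (ENSMUSG00000076146.1, positions 113035983 to 113036091) had 25 counts in replicate 1, or 7.68 CPM (4.97 to 11.3), and 20 counts in replicate 2, or 5.60 CPM (3.42 to 8.64). Mir449b (ENSMUSG00000078027.1, positions 113037419 to 113037498), the hairpin nearest to Mir449a, had 8 counts in replicate 1, or 2.46 CPM (1.06 to 4.84), and 7 counts in replicate 2, or 1.96 CPM (0.787 to 4.03). Both members were thus detected in each library, above the 3 counts that a count of 0 allows, but with wide intervals. Per base of hairpin, the read level of Mir449a was 162 times that of Mir449c in replicate 1 (110 to 251) and 98.0 times in replicate 2 (63.3 to 161). Without division by hairpin length these ratios were 135 in replicate 1 and 81.85 in replicate 2. Mir449a gave 99.0% of the counts of the cluster in replicate 1 (98.6 to 99.3) and 98.4% in replicate 2 (97.6 to 98.9).

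**Figure D1:**
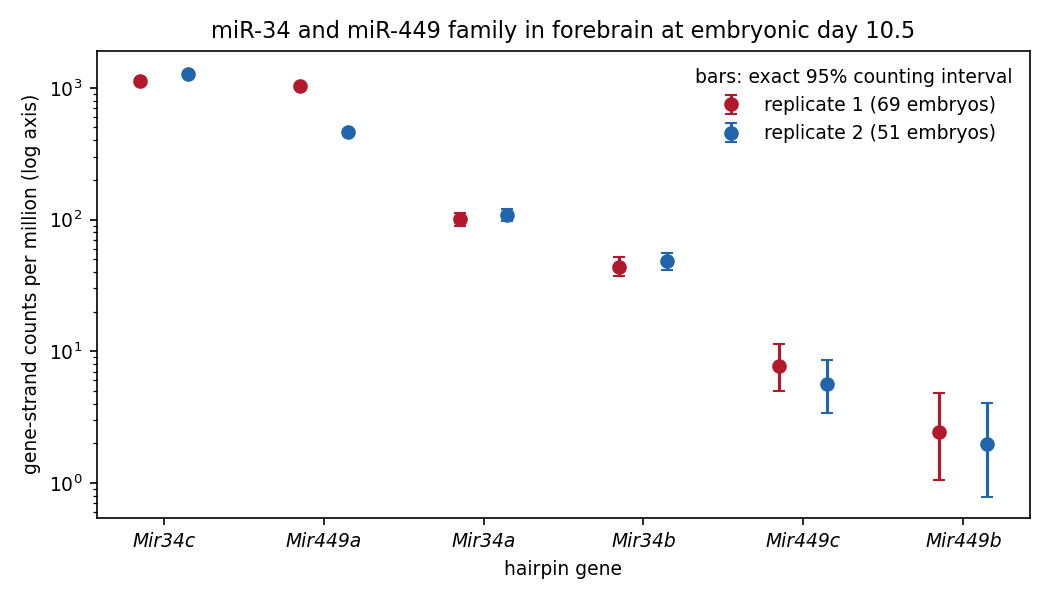
Level of each of the 6 hairpin genes in CPM on a log axis, replicate 1 in red on the left and replicate 2 in blue on the right, with exact 95% counting intervals. Mir34c and Mir449a stand far above the others, and Mir449a is the member whose points lie farthest apart among those with narrow intervals (1040 CPM in replicate 1 and 458 CPM in replicate 2).

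**Figure D2:**
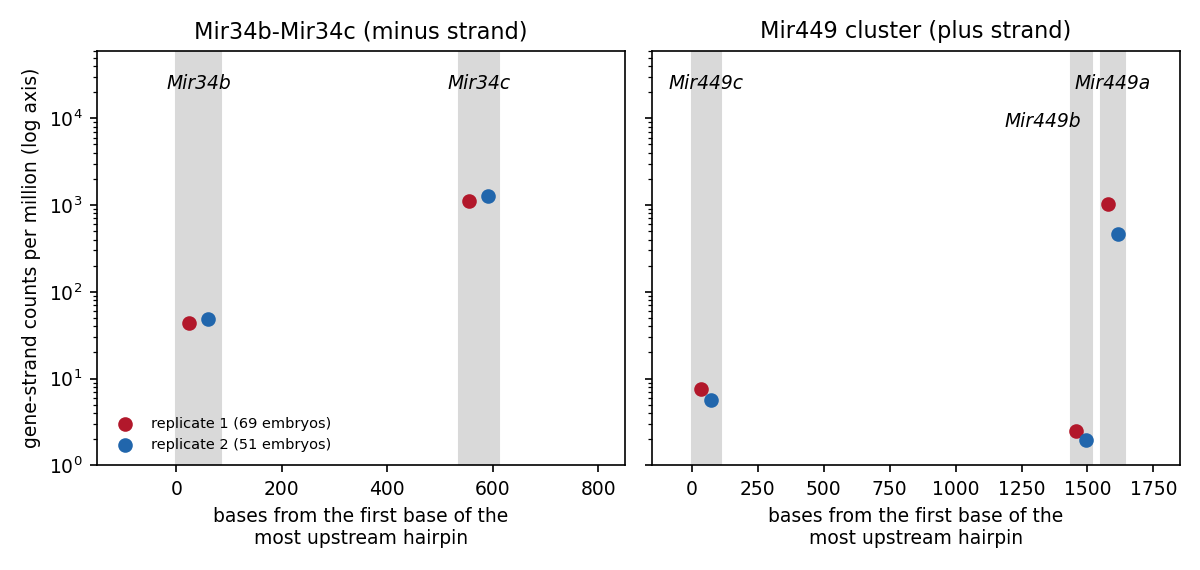
Level in CPM on a log axis against the distance, in transcript direction, from the first base of the most upstream hairpin of the Mir34b-Mir34c pair (left) and of the Mir449 cluster (right). Grey bands are the hairpins, and points are replicate 1 (red) and replicate 2 (blue). In both loci the last hairpin holds nearly all counts, with Mir449b at 2.46 and 1.96 CPM beside Mir449a at 1040 and 458 CPM although 35 bases separate them.

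Ordered by level per 100 bases of hairpin, the members ran from Mir34c (1563 ± 142 CPM per 100 bases) over Mir449a (823 ± 452), Mir34a (102.4 ± 5.6), Mir34b (54.8 ± 3.5) and Mir449c (6.09 ± 1.35) to Mir449b (2.76 ± 0.44, SD, n = 2 for each). The order by plain CPM was the same, and it held in each of the libraries. The gap between the leading members depended on the library. Per base of hairpin, the read level of Mir34c was 1.28 times that of Mir449a in replicate 1 (1.22 to 1.34) and 3.31 times in replicate 2 (3.12 to 3.50). Without division by hairpin length Mir34c had 1.08 times the counts of Mir449a in replicate 1 and 2.80 times in replicate 2. Their means differed by 740 CPM per 100 bases, against a sum of SDs of 595, the smallest gap in the order relative to its SDs. The other neighbouring pairs also differed by more than the sum of their SDs, which n = 2 estimates poorly.

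The division of the family between its loci differed between the pools. The Mir34b-Mir34c pair gave 50.4% of the family's counts in replicate 1 (49.3 to 51.5) and 69.8% in replicate 2 (68.7 to 70.9). The Mir449 cluster gave 45.3% in replicate 1 (44.1 to 46.4) and 24.5% in replicate 2 (23.4 to 25.5). Mir34a gave 4.33% in replicate 1 (3.88 to 4.81) and 5.70% in replicate 2 (5.16 to 6.28). For each locus the interval of replicate 1 lay apart from that of replicate 2. The mean share of the Mir449 cluster, 34.9% ± 14.7 (SD, n = 2), therefore describes neither pool well. The shares add up to the whole family, so a larger share of the Mir449 cluster makes those of the other loci smaller. In CPM the cluster had 1050 in replicate 1 and 466 in replicate 2. The Mir34b-Mir34c pair had 1170 CPM in replicate 1 and 1329 CPM in replicate 2, and Mir34a 100.4 and 108.5 CPM.

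**Figure D3:**
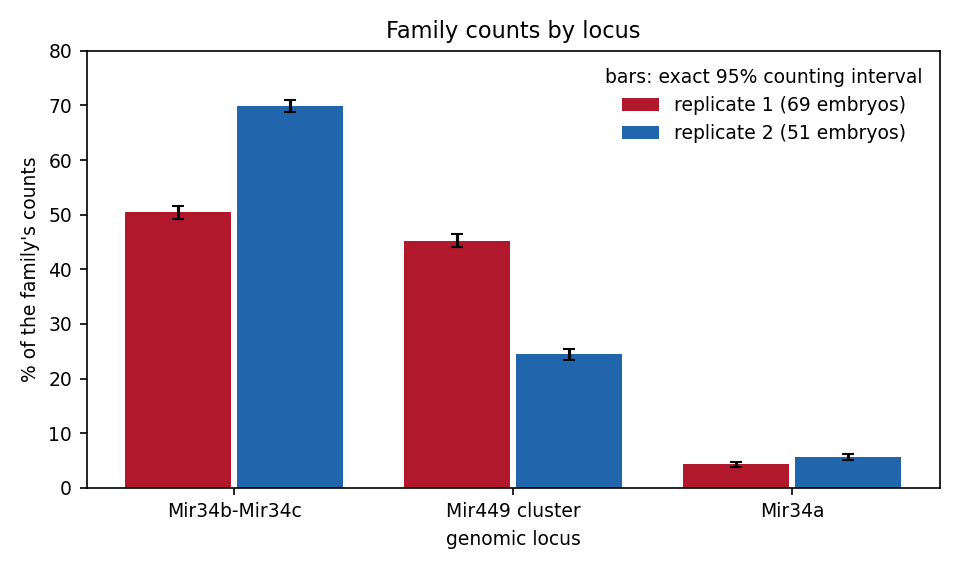
Share of the family's counts held by each locus, in percent, for replicate 1 (red, left) and replicate 2 (blue, right), with exact 95% counting intervals. The Mir449 cluster held 45.3% in replicate 1 and 24.5% in replicate 2, and the Mir34b-Mir34c pair 50.4% in replicate 1 and 69.8% in replicate 2.

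The libraries were next compared gene by gene, as log2 ratios of replicate 1 over replicate 2 scaled by TMM factors. An exact binomial test, two-sided, with Benjamini-Hochberg adjustment over the 401 genes that averaged at least 10 counts asked whether a gene's counts split as the library sizes do. It covers counting error and compares these libraries, not conditions. It called 43.4% of all tested genes, 19.7% higher and 23.7% lower in replicate 1, so a call alone does not mark a member out. Of the 6 members 5 were tested, Mir449b having too few counts, and 1 was called higher and 1 lower. Their median log2 ratio was −0.14, beside −0.03 for all tested genes.

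Mir449a was higher in replicate 1, with 1040 CPM against 458 CPM in replicate 2. The counting intervals of these levels, 1005 to 1076 CPM in replicate 1 and 436 to 481 CPM in replicate 2, lie far apart. Its log2 ratio was 1.15 (1.07 to 1.24), a 2.22-fold difference (adjusted p = 1.8e-164, exact binomial test). More than 1.5-fold differences in either direction were found in 12.7% of tested genes, and a log2 ratio of at least this size in 9 genes (2.24%), Mir449a included. The 4 genes with a higher ratio had mean counts between 11 and 19. Of the 271 genes that averaged at least 100 counts Mir449a had the highest ratio, and the next was 0.84. In pooled tissue, fewer cells of a type and less RNA per cell cannot be told apart.

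Mir34c was lower in replicate 1, with 1126 CPM in replicate 1 and 1281 CPM in replicate 2. Its log2 ratio was −0.22 (−0.28 to −0.15; adjusted p = 5.7e-11, exact binomial test). This is close to the median size of 0.17 over all tested genes, and 39.4% of them had a ratio of at least this size. With edgeR's exact test, which took the common dispersion of the libraries as replicate spread (biological coefficient of variation 14.0%), 0.998% of tested genes were called. Mir449a was among those 4 genes (adjusted p = 0.0082), while Mir34c was not called (adjusted p = 1).

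The remaining members did not pass the binomial test. Mir34a had a log2 ratio of −0.14 (−0.36 to 0.07; adjusted p = 0.33, exact binomial test), and Mir34b had −0.16 (−0.49 to 0.17; adjusted p = 0.52, exact binomial test). The intervals of both contain the ratio of Mir34c and lie well under that of Mir449a. Mir449c had a log2 ratio of 0.42 (−0.48 to 1.35; adjusted p = 0.55, exact binomial test), and Mir449b, not tested, had 0.28 (−1.36 to 1.99). These intervals contain both 0 and the ratio of Mir449a. Summed, Mir449b and Mir449c had 33 counts in replicate 1 and 27 in replicate 2, a log2 ratio of 0.39 (−0.38 to 1.18). At this depth it could not be seen whether the other hairpins of the cluster differed between the pools as Mir449a did.

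Mir449a alone turned the family's total from lower to higher in replicate 1. The family summed to 2321 CPM in replicate 1 and 1903 CPM in replicate 2, a log2 ratio of 0.26 (0.21 to 0.30). Without Mir449a the sum was 1280 CPM in replicate 1 and 1445 CPM in replicate 2, a log2 ratio of −0.21 (−0.26 to −0.15). A statement on the family total in these pools thus rests on this member.

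**Figure D4:**
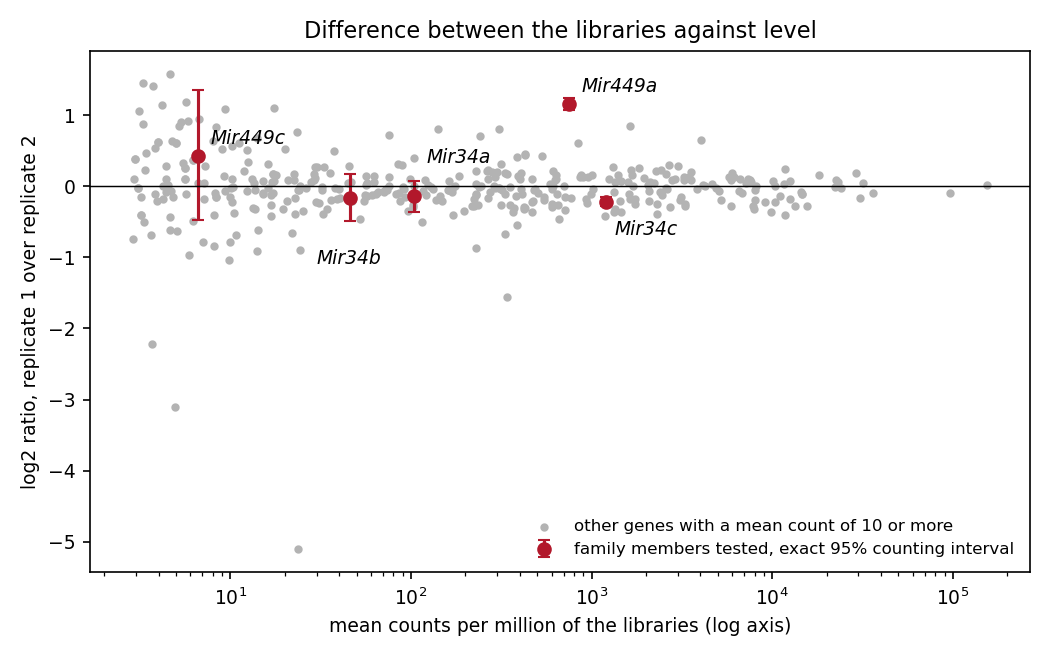
Log2 ratio of replicate 1 over replicate 2 against mean CPM on a log axis for the 401 tested genes, with the 5 tested members in red and their exact 95% counting intervals. Mir449a at 1.15 lies above the other genes that averaged at least 100 counts, while Mir34a, Mir34b and Mir34c lie between −0.22 and −0.14 within the cloud of other genes.

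The genes whose levels were most like each member's are given as a description over 2 libraries, by the distance between log2(CPM + 1) values. Nearest to Mir34c was Mir543, with 1135 CPM in replicate 1 and 1263 CPM in replicate 2 (distance 0.023), and then Mir302c, with 1024 CPM in replicate 1 and 1340 CPM in replicate 2 (0.15). Mir34a was nearest to Mir452 (distance 0.034) and Mir30c-1 (0.092), and Mir34b to Mir3061 (0.057) and Mir574 (0.15). Mir449c was nearest to Mir6399 and Mir5619 (0.12 each). Mir449a had no such close neighbour. The nearest was Mir181a-2, a gene whose mature sequence has a further locus, with 1028 CPM in replicate 1 and 659 CPM in replicate 2 (distance 0.52), followed by Mir676 at 0.71.

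Other miRNAs linked to p53 lay on both sides of Mir34a in CPM, with Mir15a, Mir16-1, Mir143 and Mir107 above it and the other 5 counted genes below. Of 10 listed genes other than the miR-34 genes 9 were counted and 7 tested, and 3 were called higher and 0 lower in replicate 1, against 19.7% and 23.7% of all tested genes. Those called were Mir143 (log2 ratio 0.20), Mir107 (0.16) and Mir16-1 (0.10), each small. The median log2 ratio was −0.03, opposite in sign to that of the summed counts (0.08). Mir15a led the list with 4876 ± 11 CPM (SD, n = 2), and Mir192, Mir194-2 and Mir145a each had between 53.7 and 74.1 CPM. Mir194-1 and Mir215 had at most 3 counts in a library.

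Marker miRNAs of several cell types and tissues were set beside the difference in Mir449a. Whether the dissected tissue held each of them was not measured. The epithelium of the choroid plexus and the pigment epithelium of the eye are known for Mir204 and Mir211. Both were lower in replicate 1, opposite to Mir449a. Mir204 had 318 CPM in replicate 1 and 452 CPM in replicate 2 (log2 ratio −0.54, adjusted p = 1.8e-20, exact binomial test). Mir211 had 174 CPM in replicate 1 and 502 CPM in replicate 2 (log2 ratio −1.55, adjusted p = 4.4e-127, exact binomial test). With edgeR's exact test Mir211 was called (adjusted p = 4.5e-05), while Mir204 was not.

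Markers of surface and other epithelia were slightly higher in replicate 1 in their sum, as Mir449a was. They summed to 10352 CPM in replicate 1 and 9076 CPM in replicate 2, and 5 of 7 were called higher and 0 lower, against 19.7% and 23.7% of all tested genes, with a median log2 ratio of 0.13 and Mir429 at the highest level (0.29). Of the neuron list 4 of 10 tested genes were called higher and 0 lower, against the same 19.7% and 23.7%, with sums of 1019 CPM in replicate 1 and 823 CPM in replicate 2. Mir137 had the highest level of the neuron list (log2 ratio 0.45), while the median log2 ratio of the list was 0.01. Of the neural progenitor list 4 of 5 were called higher and 0 lower, again against 19.7% and 23.7%, with sums of 20307 CPM in replicate 1 and 17746 CPM in replicate 2. Mir92b had the highest level there (log2 ratio 0.16), and the median log2 ratio was 0.18. In the neuron list 9 of 12 counted genes have several loci, and in the progenitor list 4 of 5. Such genes are counted as a lower limit, and Mir9-1 was not counted at all. Mir124a-2, for example, had 15 counts in replicate 1 and 18 in replicate 2. None of these lists reached the log2 ratio of Mir449a in its sum. Single genes came nearer to it than the sums. Mir128-2 of the neuron list had a log2 ratio of 1.09, on 42 counts in replicate 1 and 21 in replicate 2. Mir135a-2 of the progenitor list had 0.80, on 587 counts in replicate 1 and 362 in replicate 2. The list medians of 0.01 and 0.18 lay far below both.

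The counts of calls in the remaining lists, of 2 to 5 tested genes each, stand against 19.7% of all tested genes called higher and 23.7% called lower, and with so few genes nothing is read from them. Eye and sensory organ miRNAs summed to 7886 CPM in replicate 1 and 7385 CPM in replicate 2, with 1 of 3 called higher and 1 lower and Mir182 at the highest level (log2 ratio 0.01, the median of the list). Endothelial and vessel wall miRNAs summed to 32967 CPM in replicate 1 and 35318 CPM in replicate 2, with 1 of 5 called higher and 1 lower and Mir126a at the highest level (log2 ratio −0.17, list median −0.12). Erythroid miRNAs summed to 693 CPM in replicate 1 and 792 CPM in replicate 2, and 1 of 3, Mir451a, was called lower (log2 ratio −0.26, list median −0.01).

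Leukocyte miRNAs summed to 724 CPM in replicate 1 and 642 CPM in replicate 2, with 1 of 2 tested called higher and Mir155 at the highest level (log2 ratio 0.10, list median 0.15). Head mesenchyme miRNAs summed to 7845 CPM in replicate 1 and 7569 CPM in replicate 2, with 1 of 5 called higher and 1 lower and Mir214 at the highest level (log2 ratio −0.04, the median of the list). The X-linked testis miRNAs, markers of the male germ line, summed to 3.99 CPM in replicate 1 and 2.80 CPM in replicate 2 over 14 genes, of which 9 had no count in either library. Mir741, the highest, had 9 counts in replicate 1 and 6 in replicate 2, above the floor of 3 counts (0.921 CPM in replicate 1, 0.839 CPM in replicate 2), and no gene of the list had enough counts to be tested. The part of any of these cell types in the difference of Mir449a was not tested.

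**Figure D5:**
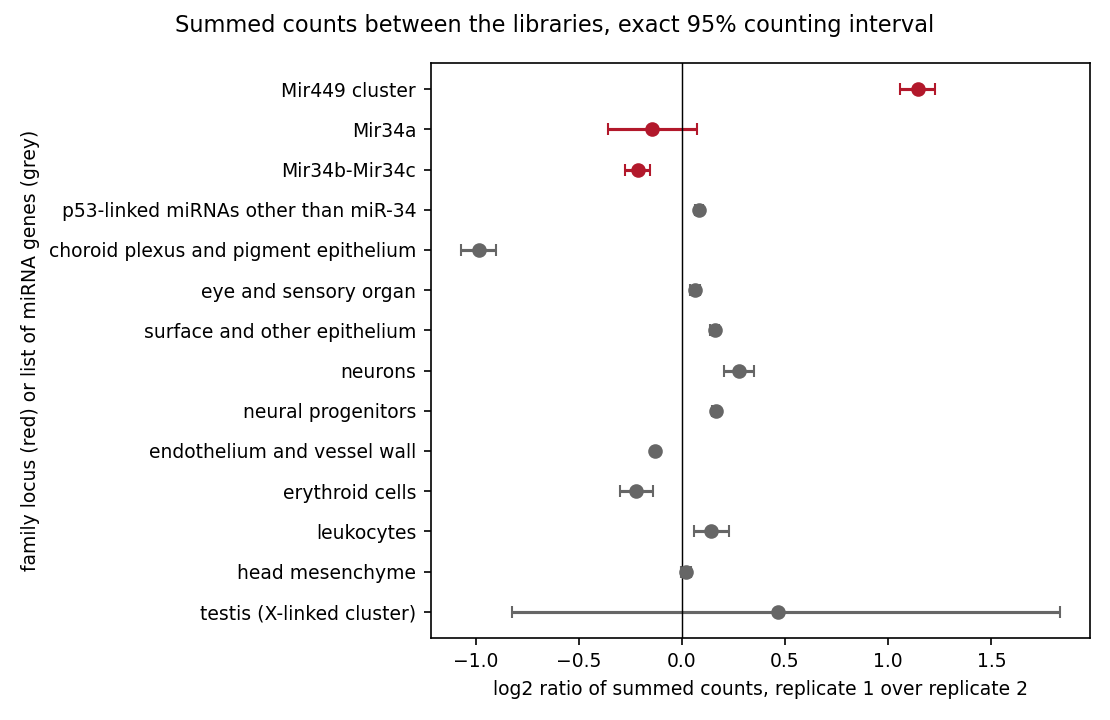
Log2 ratio of summed counts, replicate 1 over replicate 2, for the 3 family loci (red) and the 11 lists of other miRNA genes (grey), with exact 95% counting intervals. The Mir449 cluster at 1.14 and the choroid plexus and pigment epithelium list at −0.99 lie farthest from 0, in opposite directions.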

How the data were processed

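For each library the authors deposited whole-number read counts by gene, not normalized, on either strand, on the strand of the gene and on the opposite strand. Per the file headers and notes deposited with them, the assembly was mm10 and the annotation M4. Aligner, trimming and counter are not stated in those notes or the labels. Reads in the tallies for unmapped, several-place and outside-gene reads, 62.0% of reads in replicate 1 and 63.0% in replicate 2, stayed out of library sizes and tests. Counts on the strand of the gene were used, since opposite-strand counts were 3.31% of the either-strand counts in replicate 1 and 3.62% in replicate 2. Symbols came from GENCODE M21 (1894 of 1973 identifiers) and sequences from RefSeq.

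TMM factors came from edgeR 4.0.16 and size factors from DESeq2 1.42.0 (R 4.3.3). A pseudocount of 0.5 counts was used in ratios. The binomial test ran in Python 3.11.15 with scipy 1.17.1 on genes averaging at least 10 counts. It was also run on simulated counts that held counting error alone, so that run does not cover spread between pools. The labels number the libraries as biological replicates. Binomial p-values cover counting error, so they are too small for a difference between pools.

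The genes named are the members, the 2 genes nearest to each tested member, the highest gene of each of 11 lists, and any gene sharing the seed. Others were chosen after their values were seen. The members and lists were chosen with earlier results of these data known. Genes whose symbols differ in a trailing number, such as Mir194-2, Mir16-1 or Mir181a-2, have several loci and are counted as a lower limit.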

Additional observations from a re-analysis of the deposited data

How the results depend on the processing

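Under total-count scaling, DESeq2 size factors, either-strand counts, no filter on low counts, a mean count of 100 or more and a pseudocount of 5 counts, each tested member that could be given a value kept its direction and its side of the threshold. Mir449c has no value at a mean count of 100. With edgeR's exact test 4 genes were called, against 174 (1 higher and 3 lower in replicate 1), and Mir34c, at −0.22, was no longer called. That test treats the difference between the libraries as spread, which makes it stricter by construction. The family log2 ratio stayed between 0.25 and 0.29. Its share of counts was 0.118% with reads mapped to several places in the denominator, which is larger by construction, and 0.190 to 0.232% with either library left out. The Mir449 cluster's share of the family was 24.5 to 45.3% with either library left out and 31.8% per hairpin length. With total-count scaling or size factors the test called 93 genes higher and 84 lower in replicate 1, against 79 and 95, and with these the eye and sensory list had 2 higher and 0 lower. No paired analysis was possible because there was 1 group. Depth limits Mir449b and Mir449c most.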

Other observations

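Beside Mir449a, the genes with a log2 ratio of at least its size were few, and are named here after their values were seen. Higher in replicate 1 were Mir7069 (23 counts in replicate 1 and 8 in replicate 2), Mir3078 (16 and 6), Mir383 (18 and 7) and Mirlet7b (26 and 12), all weakly counted, of which Mir7069 and Mirlet7b passed the binomial test. Lower in replicate 1 were Mir211 (568 and 1793 counts), Gm25911 (4 and 22), Mir184 (3 and 32) and Mir669f (4 and 165). The genes called by edgeR's exact test were Mir449a, Mir211 (adjusted p = 4.5e-05), Mir184 (adjusted p = 0.0017) and Mir669f (adjusted p = 1.2e-18). Mir184 is known from lens and cornea and Mir211 from pigment cells and choroid plexus.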
